A study of Tupaia belangeri with 15 samples.

Results

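Nuclei carrying CA10 and ERBB4 RNA were taken from the tree shrew (TS) retina, and 2191 of 119765 nuclei (1.83%) met the limits. Nuclei were selected on their UMI counts of 9 genes. A nucleus was chosen by holding at least 2 unique molecular identifiers (UMIs, each marking a captured RNA molecule) of CA10 and at least 3 of ERBB4, fewer than 3 of DSCAM, and none of PRKCA, GAD1, GAD2, RBPMS, SLC17A6 or ARR3. The limits were meant to find ERBB4-positive bipolar cells (BCs), with IRX5 as a further marker. The data went against that name for a large share of the nuclei, as shown by the markers of other cells given after the opening, so they are called CA10 and ERBB4 nuclei here. The counts of these 9 genes chose the members and are given as a description with no test.

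Single-nucleus RNA was sequenced from 15 retinas of Tupaia belangeri, with 5 retinas in each of the infancy, mature and senile groups and no treatment in any of them. Nothing in the labels ties the retinas of a group to litters or to pairs of eyes, so p-values measure the spread between these retinas. The senile animals were bought from another institute than the infant and mature animals, so stage and source cannot be told apart in comparisons with the senile group. Sex is not in the labels used here and was left out of all tests.

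BCs carry signals from photoreceptors to ganglion cells. OFF BCs sense glutamate through AMPA and kainate receptors, and in the mouse ERBB4 marks a single OFF type and IRX5 and IRX6 a few of them. ERBB4 is the receptor tyrosine kinase for neuregulins and is also abundant in many inhibitory interneurons, CA10 is a ligand of neurexins at synapses, and IRX5 and IRX6 are homeodomain transcription factors. Amacrine cells are the inhibitory interneurons that contact BC terminals. They carry TFAP2A and TFAP2B, which are AP-2 transcription factors, and the glycinergic ones take up glycine through SLC6A9.

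The libraries held between 13429873 UMIs (senile retina 2) and 58734300 UMIs (mature retina 3), and 4231 to 9852 nuclei per retina passed limits on the number of genes and the mitochondrial share. In the 7 libraries whose file headers name Cell Ranger 6.1.2 (infancy 1 to 3, mature 1 and 2, senile 1 and 2), the median CA10 and ERBB4 nucleus of a retina held 985.5 to 1799.5 UMIs, against 2123.5 to 5814.5 in the 8 libraries made with 7.0.1. Over all nuclei these medians overlapped, at 1461 to 3064 and 2267 to 5589 UMIs. Barcodes found in more than 1 library made up 1793 of 118622 (1.51%).

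The number of CA10 and ERBB4 nuclei was 138, 116, 176, 160 and 221 in infancy retinas 1 to 5, 94, 149, 189, 211 and 126 in mature retinas 1 to 5, and 180, 70, 41, 152 and 168 in senile retinas 1 to 5. The median nucleus held 2663 UMIs, 8 of them from ERBB4 and 7 from CA10, and the highest counts were 116 for ERBB4 and 71 for CA10. Just inside the limits, 301 nuclei had exactly 3 UMIs of ERBB4 and 229 had exactly 2 of CA10. Just outside, 374 nuclei that met every other limit had 2 UMIs of ERBB4. Of 4203 nuclei that met the limits on CA10, ERBB4 and DSCAM, a UMI of the cone arrestin ARR3 removed 1356 (32.3%). PRKCA, the kinase that marks rod BCs, removed 839 (20.0%), and the ganglion cell genes RBPMS and SLC17A6 removed 253 (6.02%) and 178 (4.24%). Over all nuclei, a UMI of these genes was found in 35.3%, 26.9%, 8.59% and 7.77%, in that order. Each share removed was thus no higher than the share over all nuclei. The enzymes GAD1 and GAD2, which make GABA and mark GABAergic amacrine cells, removed 5 and 0 nuclei, and GAD2 had no UMI in any nucleus of any retina. The limit on these enzymes therefore removed few amacrine cells of any kind.

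ERBB4 reached 2829 CPM (its UMIs per 1000000 UMIs summed over the nuclei of a retina) in the lowest retina, 3604 in the median and 8995 in the highest. In the CA10 and DSCAM nuclei of the same retinas, which held at least 3 UMIs of DSCAM and under 3 of ERBB4, it was 13.5, 41.9 and 65.0 CPM. The ERBB4 levels spanned 2900 to 3977 CPM in infancy, 2829 to 3604 in mature and 3763 to 8995 in senile retinas. The highest value came from senile retina 2, where 11 of 28 nuclei with BC markers held at least 20 ERBB4 UMIs and made up 79.4% of the ERBB4 UMIs of those nuclei. CA10 was at 2219, 2680 and 3291 CPM, overlapping the 2444, 3067 and 3495 CPM of the CA10 and DSCAM nuclei.

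The CA10 and ERBB4 nuclei included nuclei with BC markers and nuclei with amacrine markers. BC markers were a UMI of any of 5 genes, among them GRIK1 (kainate receptor subunit, read from the numbered gene copy that holds its counts), NETO1 (its auxiliary protein), TRPM1 (ON BC channel) and OTX2 (a BC transcription factor), and amacrine markers were a UMI of TFAP2A, TFAP2B, SLC6A9 or SLC32A1 (vesicular GABA and glycine carrier). BC markers without amacrine markers were found in 828 nuclei (37.8%), and amacrine markers without BC markers in 754 (34.4%). Both kinds were found in 469 nuclei (21.4%) and neither in 140 (6.39%). SLC32A1 had no UMI in these nuclei or in any other kind of nucleus examined, so it did not serve as a marker here. A single UMI of GRIK1li1, the GRIK1 copy, also occurred outside BCs. It was found in 55.4% of CA10 and ERBB4 nuclei (50.5% after thinning to 2000 UMIs per nucleus), in 32.5% (23.0% thinned) of nuclei with at least 2 UMIs of the cone gene ARR3 and none of TFAP2A or TFAP2B, called ARR3 nuclei, and in 37.3% (24.4% thinned) of nuclei with at least 2 UMIs of TFAP2A and TFAP2B together and none of ARR3, called TFAP2 nuclei. Its share among ARR3 nuclei reached 82.3% in a single retina, and the part of free RNA in the counts of nuclei with BC markers or with both kinds was not tested. NETO1 was found in 38.1% of CA10 and ERBB4 nuclei (34.7% thinned), 10.3% of ARR3 nuclei (6.40% thinned) and 9.12% of TFAP2 nuclei (4.77% thinned).

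Amacrine markers alone were far more common in CA10 and ERBB4 nuclei than in the other CA10 nuclei of the same retinas. Their share was 10.1% in the lowest, 40% in the median and 51.7% in the highest retina, against 2.95%, 4.41% and 11.1% in CA10 and DSCAM nuclei and 3.09%, 4.46% and 8.52% in CA10 nuclei low in both ERBB4 and DSCAM. The share was higher in 15 of 15 retinas in both comparisons, with mean differences of 30.7 ± 11.7 and 31.4 ± 12.1 percentage points (SD, n = 15; exact sign-flip permutation test, two-sided, p = 6.1e-05, the smallest it can give, and the same adjusted over 4 comparisons). BC markers alone were lower in 15 of 15 retinas, at 24.4%, 35.1% and 48.1% against 57.9%, 73.5% and 81.7% in CA10 and DSCAM nuclei. By stage, the share with amacrine markers alone was 24.4% to 51.7% in infancy, 10.1% to 44.7% in mature and 39.5% to 48.8% in senile retinas, so the stages overlapped.

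The share with both kinds of marker was 5% to 16.4% in the 7 Cell Ranger 6.1.2 libraries and 17.1% to 40.2% in the 8 others, and the part of depth, free RNA and doublets in it was not tested. A doublet caller marked 67 of the 2191 nuclei (3.06%), against 6.63% of all nuclei, and among the 469 nuclei with both kinds of marker it marked 7.89%. The share over all nuclei was set in advance by the size of each library. The limits on ARR3, PRKCA, RBPMS and SLC17A6 may also leave out mixed nuclei, so the lower share is not a result about these nuclei. The nuclei with BC markers alone held a median of 2487 UMIs and 1305.5 genes, and those with amacrine markers alone 2153.5 UMIs and 1200.5 genes. ERBB4 was at a median of 5 UMIs in the former and 10 in the latter.

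**Figure D1:**
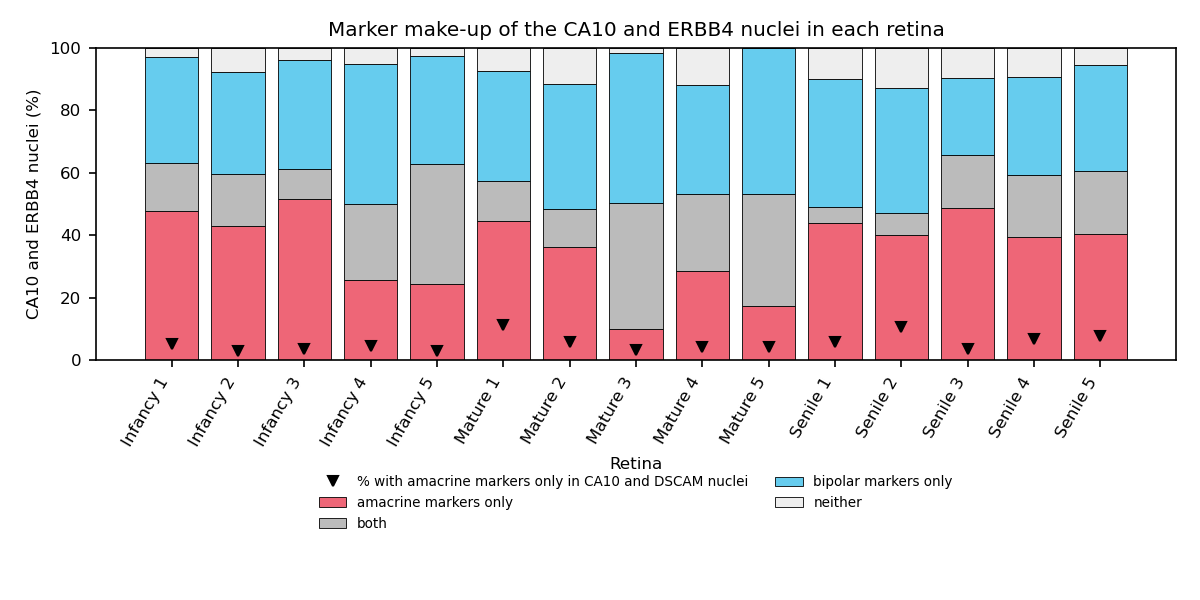
Share of CA10 and ERBB4 nuclei (%, stacked bars) with amacrine markers only, both kinds, BC markers only or neither, for each of the 15 retinas. Black triangles give the share with amacrine markers only among the CA10 and DSCAM nuclei of the same retina, and that share is the lower in 15 of 15 retinas.

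The nuclei with amacrine markers carried the vesicular glutamate carrier SLC17A8, which loads glutamate into synaptic vesicles and is known from a class of glycinergic amacrine cells. SLC17A8 was at 451, 1037 and 1617 CPM in the lowest, median and highest retina in the nuclei with amacrine markers alone, and at 0, 34.3 and 91.0 CPM in those with BC markers alone. A UMI of SLC17A8 was found in 84.7% of the former and 5.80% of the latter (73.9% and 4.09% thinned), against 1.45% of CA10 and DSCAM nuclei (0.765% thinned) and 3.88% of ARR3 nuclei (1.94% thinned). In TFAP2 nuclei the share was 8.64% (5.68% thinned). Median UMIs per nucleus over the retinas ran from 985.5 to 5814.5 in CA10 and ERBB4 nuclei, 1301 to 4959 in CA10 and DSCAM nuclei, 1598 to 8251 in ARR3 nuclei and 1837 to 7757 in TFAP2 nuclei, and 37.1% of the CA10 and ERBB4 nuclei were under 2000 UMIs and left out of the thinned shares.

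The nuclei with amacrine markers alone also held CYYR1 (a small membrane protein) at 519, 794 and 1472 CPM, LHX2 (a LIM homeodomain factor) at 199, 374 and 639 CPM, and BNC2 (a zinc finger protein) at 325, 614 and 748 CPM. In nuclei with BC markers alone these were at 0 to 143, 0 to 50.4 and 0 to 94.6 CPM. GRM8, a metabotropic glutamate receptor, was at 3450, 4931 and 6158 CPM against 90.5, 299 and 974 CPM, and the NMDA receptor subunit GRIN2A at 2415, 2967 and 3848 CPM against 0, 92.4 and 344 CPM. The groups did not overlap in any of these 5 genes. The 5 were picked for large fold changes or from the gene lists. The share of all features without overlap between these groups was not counted. PAX6, a transcription factor of amacrine cells, had a UMI in 63.7% of these nuclei (57.2% thinned), against 14.3% of those with BC markers alone (12.3% thinned), 28.3% of CA10 and DSCAM nuclei (32.3% thinned) and 21.4% of ARR3 nuclei (13.0% thinned). The level of some of these genes differed with the library. SLC6A9 was at 576 to 1271 CPM in Cell Ranger 6.1.2 libraries and 136 to 525 in the others and SLC17A8 at 1037 to 1617 and 451 to 1507, whereas TFAP2A was at 228 to 583 and 241 to 549.

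The nuclei with BC markers alone carried EBF1, NXPH2 and KCNH1. EBF1, a helix-loop-helix transcription factor, was at 1801, 3760 and 4636 CPM in them, at 0, 32.4 and 129 CPM in the nuclei with amacrine markers alone, and at 81.3, 110 and 421 CPM in CA10 and DSCAM nuclei with BC markers alone. A UMI of EBF1 was found in 75% of them (70.3% thinned), in 12.8% of ARR3 nuclei (9.40% thinned) and in 14.2% of TFAP2 nuclei (9.73% thinned). The ON BC factor ISL1 had a UMI in 4.24% of all CA10 and ERBB4 nuclei (3.19% thinned), against 31.6% of the CA10 nuclei low in ERBB4 and DSCAM (25.9% thinned) and 7.22% of CA10 and DSCAM nuclei (6.67% thinned). TRPM1, the ON BC channel and a marker used to choose the BC-marker nuclei, had a UMI in 28.2% of all CA10 and ERBB4 nuclei (21.3% thinned), 49.8% of the CA10 nuclei low in both (45.8% thinned), 13.1% of CA10 and DSCAM nuclei (11.2% thinned), 12.1% of ARR3 nuclei (6.59% thinned) and 7.06% of TFAP2 nuclei (3.30% thinned).

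IRX5 and IRX6 were low but above the comparison nuclei. IRX5 had a UMI in 5.31% of the nuclei with BC markers alone (3.68% thinned), in 0.398% of those with amacrine markers alone (0.249% thinned), in 0.502% of CA10 and DSCAM nuclei (0.369% thinned) and in 1.39% of ARR3 nuclei (0.623% thinned). Over the retinas it was at 0, 16.5 and 106 CPM, a mean of 23.3 ± 27.4 CPM (SD, n = 15), against 1.93 ± 2.42 CPM in CA10 and DSCAM nuclei with BC markers, and it was higher in 12 retinas and lower in 2 (exact sign-flip permutation test, two-sided, p = 0.0011, adjusted over 4 tests p = 0.00146). Senile retina 2 gave the 106 CPM, from 28 nuclei with a median of 967 UMIs, so this level rests on a few IRX5 UMIs. Without that retina the mean difference fell from 21.4 to 15.3 CPM (permutation test, adjusted p = 0.00293). IRX6 was at 9.75, 28.7 and 102 CPM and higher in 15 of 15 retinas than in CA10 and DSCAM nuclei with BC markers, by 34.4 CPM on average, and than in CA10 nuclei low in both with BC markers, by 31.7 CPM (exact sign-flip permutation test, adjusted p = 0.000122 for both). Against that last kind IRX5 was higher in 12 retinas and lower in 3, by 18.3 CPM (exact permutation test, adjusted p = 0.0083, and 0.0166 without senile retina 2).

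Clustering the CA10 and ERBB4 nuclei gave 7 clusters, of which 2 and 5 held 0 nuclei with amacrine markers alone and 1 and 3 held 22 and 5 with BC markers alone. The clustering left out the genes of the limits but could use the marker genes, so part of this match may be built in. Cluster 1 held 756 nuclei (34.5%), 423 with amacrine markers alone and 245 with both, and was led by NEUROD2, BNC2 and CYYR1. A UMI of GRIK1li1 was found in 32.7% of cluster 1, of NETO1 in 2.65% and of TRPM1 in 2.12%. Cluster 3 held 310 nuclei (14.1%), 259 with amacrine markers alone. It was led by CXCL14, C1QTNF4 and VSTM2L, with CHGA and the amacrine marker SLC6A9 also among its leading genes. It drew on 9 retinas, the 7 libraries of Cell Ranger 6.1.2 plus senile retinas 3 and 5, which are 7.0.1 libraries. Senile retina 3 gave 11 of its 41 nuclei and senile retina 5 gave 1 of 168, against 19 of 70 in senile retina 2 (6.1.2). The other 7.0.1 libraries gave none. Cluster and library version thus went together in most but not all libraries, and the cause was not tested. SLC17A8 had a UMI in 84.7% of cluster 1 and 91.6% of cluster 3.

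Cluster 2 held 613 nuclei (28.0%), 563 with BC markers alone and 0 with amacrine markers alone, and was led by EBF1, the potassium channel genes KCND2 and KCNH1, and the adrenergic receptor ADRA1D. Cluster 5 held 137 nuclei (6.25%) from 14 retinas, 123 with BC markers alone and 0 with amacrine markers alone. It was led by MALRD1, ROBO1 (receptor for SLIT proteins) and RIT2, with FEZF1 (zinc finger transcription factor) also among its leading genes. EBF1 was at 5161 CPM in cluster 2 and 53.8 CPM in cluster 5, and NXPH1, a secreted ligand of alpha-neurexins, at 149 CPM in cluster 2 and 19306 in cluster 5. A UMI of IRX6 was found in 9.79% of cluster 2, and cluster 5 had none. A UMI of IRX5 was found in 5.87% of cluster 2 and in 9.32% of cluster 6, which is described next, and cluster 5 had none.

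Cluster 4 held 236 nuclei of mixed markers with 29 called doublets, and included the nuclei of senile retina 2 with at least 20 ERBB4 UMIs. Cluster 6 held 118 nuclei with 32 called doublets and was led by MAGEB4, UST and ADAMTS12, with the glial markers WIF1 and SLC14A1 also among its leading genes. The Müller glia genes TF, RLBP1 and GLUL were at 704, 287 and 138 CPM in it, against 53.6, 32.0 and 11.1 CPM in cluster 2. Others, SLC1A3, DKK3, VIM and CRABP1, were higher in another cluster. It held 13 IRX5 UMIs, against 39 in cluster 2, and 40 of its nuclei had BC markers alone. The part of glial RNA or doublets in these was not tested. Cluster 7 held 21 nuclei, 20 of them from mature retina 4. The leading genes define the clusters and are not tested.

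**Figure D2:**
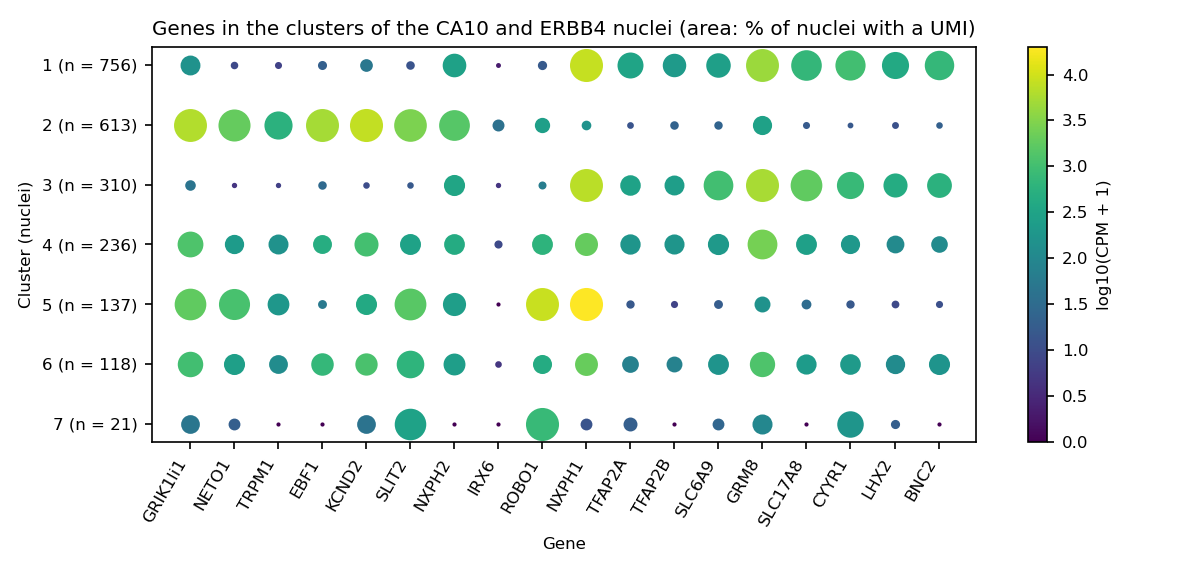
Levels of 18 genes in the 7 clusters of CA10 and ERBB4 nuclei, with circle area for the share of nuclei with a UMI (%) and colour for log10(CPM + 1). EBF1 fills cluster 2 (99.5% of nuclei) and is sparse in cluster 5 (4.38%), while SLC17A8 fills clusters 1 and 3.

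Across all features, the CA10 and ERBB4 nuclei differed broadly from the CA10 and DSCAM nuclei of the same retinas. Counts were summed per retina and tested with edgeR with the retina as a block, and 1537 features were higher and 1567 lower of 8457 tested at an adjusted p of 0.05 (36.7% in either direction, 18.2% higher and 18.5% lower). CYYR1 was at 268, 472 and 632 CPM in the lowest, median and highest retina against 0, 3.19 and 6.88 CPM (log2 fold change 7.13, SE 0.16). SLC17A8 was at 258, 549 and 1060 CPM against 0, 4.68 and 13.4 CPM (6.44, SE 0.14, edgeR adjusted p = 6.2e-23). Neither overlapped between the kinds of nuclei, and both were picked for their large fold changes.

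NXPH1 was at 3445, 4814 and 7160 CPM against 31.7, 61.3 and 400 CPM (log2 fold change 5.93, SE 0.24), and its relative NXPH2 at 382, 568 and 753 CPM against 5.68, 19.1 and 45.9 CPM (4.58, SE 0.16). SGCZ, a sarcoglycan, was at 5992, 9777 and 12441 CPM against 105, 218 and 664 CPM, and LHX2 at 145, 218 and 355 CPM (4.15, SE 0.10). CYYR1, SLC17A8, BNC2 and LHX2 came from the nuclei with amacrine markers, as given above, whereas NXPH1 was also high in a part of those with BC markers (102 to 7550 CPM). Among genes that were lower, SOX6, a transcription factor, was at 11.3, 28.5 and 58.2 CPM against 368, 604 and 729 CPM (-4.40), the GABA receptor subunit GABRR3 at 0, 24.5 and 52.4 CPM against 321, 417 and 728 CPM (-4.45), and the muscarinic receptor CHRM3 at 0, 5.14 and 20.4 CPM against 54.8, 133 and 162 CPM (-4.94).

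Against the CA10 nuclei low in ERBB4 and DSCAM, 1769 features were higher and 1661 lower of 8251 tested by edgeR (41.6% in either direction, 21.4% higher and 20.1% lower). CYYR1 (log2 fold change 6.26), SLC17A8 (5.76), the synaptic adhesion gene IL1RAPL2 (5.12) and LHX2 (4.42) led the higher genes. Lower genes included RELN, a secreted matrix protein, at 16.8, 76.6 and 182 CPM against 592, 950 and 1285 CPM (-3.65), and ISL1 at 6.44, 20.4 and 62.1 CPM against 154, 219 and 392 CPM (-3.54). Against the CA10 and PRKCA nuclei, which hold at least 2 UMIs of the rod BC kinase, 1422 were higher and 1408 lower of 5900 (48% in either direction), with CYYR1 (7.67), EBF1 (4.75) and ADRA1D (4.54) among the highest and ADARB2, a relative of RNA-editing enzymes, at 171, 267 and 709 CPM against 5220, 8682 and 11780 CPM (-4.88) among the lowest. The 3 comparisons share the CA10 and ERBB4 nuclei. A further count left out the nuclei holding an amacrine marker from the CA10 and ERBB4 nuclei only, not from the comparison nuclei. It gave 819 higher and 867 lower against CA10 and DSCAM nuclei. The counts were 678 and 671 against the CA10 nuclei low in both, and 855 and 783 against CA10 and PRKCA nuclei. Shares of the features tested are not given for this setting, so these counts cannot be set against those above.

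**Figure D3:**
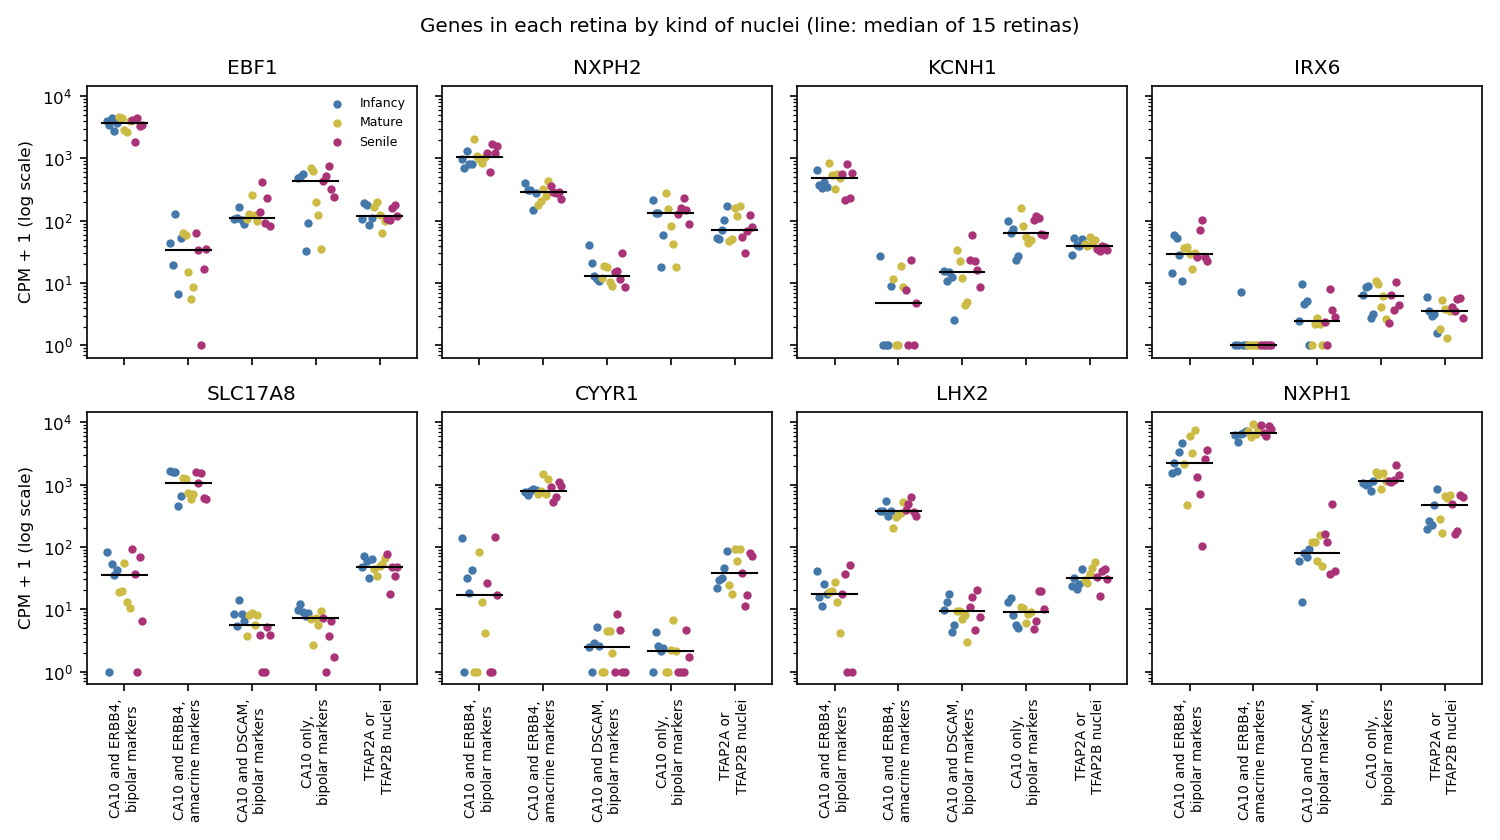
CPM + 1 (log axis) of 8 genes in 5 kinds of nuclei, with a point for each retina coloured by stage and a line at the median. EBF1, NXPH2 and KCNH1 are high in the CA10 and ERBB4 nuclei with BC markers, and SLC17A8, CYYR1 and LHX2 in those with amacrine markers.

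With nuclei holding BC markers and no amacrine marker on both sides, 752 features were higher and 892 lower of 4527 tested against CA10 and DSCAM nuclei (36.3% in either direction, 16.6% higher and 19.7% lower). NXPH2 was at 600, 1058 and 2065 CPM against 7.56, 12.03 and 39.6 CPM (log2 fold change 6.04, SE 0.18). KCNH1, a voltage-gated potassium channel, was at 212, 488 and 833 CPM against 1.54, 13.9 and 59.1 CPM (5.08, SE 0.21). EBF1 rose by 4.61 (SE 0.20, edgeR adjusted p = 1.1e-16), with the levels given above. None of these 3 genes, picked among the largest fold changes, overlapped between the kinds of nuclei.

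The axon guidance ligand SLIT2 was at 1117, 2365 and 3368 CPM against 53.9, 80.2 and 143 CPM (log2 fold change 4.64, SE 0.13), and NTNG1, a netrin-like adhesion protein, at 848, 1248 and 3144 CPM against 14.8, 74.0 and 126 CPM (4.20, SE 0.20). ADCY8, a calcium-activated adenylyl cyclase, was at 487, 758 and 1123 CPM against 14.8, 40.2 and 111 CPM (4.23, SE 0.15), and CADPS2, which primes vesicles, at 109, 267 and 507 CPM against 0, 10.4 and 21.4 CPM (4.75, SE 0.19). All 4 genes were higher in every retina, which was required for naming them, and 272 of the 752 higher features met the limits for naming. Lower genes were led by PDE11A, a cyclic nucleotide phosphodiesterase, at 0, 0 and 13.5 CPM against 229, 322 and 384 CPM (-6.62, SE 0.21), and included the contactin CNTN6 at 0, 0 and 10.3 CPM against 65.0, 96.2 and 159 CPM (-5.40).

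Against CA10 nuclei low in ERBB4 and DSCAM with the same markers, 649 features were higher and 665 lower of 4813 (27.3% in either direction). The highest were EBF1 (log2 fold change 3.66), the GTPase regulator ARHGAP6 (3.53), NXPH2 (3.49) and ADRA1D, at 92.4, 311 and 480 CPM against 10.2, 34.5 and 79.1 CPM (3.18). ISL1 (-3.64), ADARB2 (-3.61), the semaphorin receptor NRP2 (-3.50), the metabotropic glutamate receptor GRM5 (-3.47) and RELN (-3.40) were lower. Against CA10 and PRKCA nuclei with the same markers, 798 were higher and 720 lower of 3982 (38.1% in either direction), led by EBF1 (7.01), NXPH2 (6.38), ADRA1D (5.75), ADCY8 (5.41) and KCNH1 (5.17), and lower by ADARB2 (-5.48), the phosphodiesterase PDE1A (-5.46) and the sodium channel SCN9A (-4.92).

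Of 21 ligands, receptors and other members of the neuregulin pathway, 9 were tested against CA10 and DSCAM nuclei, of which 2 were higher and 3 lower (median log2 fold change 0.11), beside 18.2% higher and 18.5% lower of all features (median -0.00). Of 5 tested in nuclei with BC markers alone 0 were higher and 1 lower, beside 16.6% and 19.7% of all features (edgeR). The ligand NRG3 was at 333, 478 and 579 CPM and higher by 0.88 (SE 0.06), and it was at 537, 668 and 963 CPM in nuclei with amacrine markers alone against 177, 257 and 388 CPM in those with BC markers alone. In the BC-marker comparison its difference was 0.17 (edgeR adjusted p = 0.16). The ligand NRG1 was at 8.25, 32.5 and 65.7 CPM against 57.4, 115 and 208 CPM and was lower (log2 fold change -1.81 in all CA10 and ERBB4 nuclei and -1.44 in those with BC markers alone). EGFR, a related receptor, was also lower (-1.56), and the co-receptor ERBB2 had no UMI.

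Of 24 glutamate receptor genes tested against CA10 and DSCAM nuclei, 11 were higher and 10 lower (median log2 fold change 0.19), where 36.7% of all features passed in either direction. In nuclei with BC markers alone 5 of 16 were higher and 5 lower (median -0.09, against -0.04 over all features, of which 36.3% passed). GRM8 was higher by 1.66 and GRIN2A by 2.97, both from the nuclei with amacrine markers. The GRIK1 copy, GRIK1li1, was at 1425, 1710 and 2400 CPM against 11828, 23239 and 29401 CPM in CA10 and DSCAM nuclei (-3.71, SE 0.08), and it differed by 0.07 (edgeR adjusted p = 0.59) from the CA10 nuclei low in both. Within the nuclei with BC markers alone, which GRIK1 helped to choose, it was at 3320, 4404 and 6338 CPM against 24337, 31542 and 39941 CPM.

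Of ion channel genes, 15 of 33 were higher and 16 lower (median -0.14), beside 18.2% and 18.5% of all features. In nuclei with BC markers alone 9 of 30 were higher and 13 lower (median -0.24), beside 16.6% and 19.7%. Beside KCNH1, the sodium leak channel NALCN (2.72) and KCNQ3 (2.39) were higher in nuclei with BC markers, and KCND3 (-3.06), KCNH8 (-2.96) and SCN9A (-2.20) were lower. Of genes for GABA and glycine receptors and transport, 8 of 21 were higher and 8 lower (median -0.07), and in nuclei with BC markers alone 3 of 18 were higher and 8 lower (median -0.30), beside those same shares of all features.

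Of adhesion and guidance genes, 22 of 59 were higher and 26 lower (median -0.07), beside 18.2% and 18.5% of all features, and 20 of 52 were higher and 26 lower in nuclei with BC markers alone (median -0.39), beside 16.6% and 19.7%. In those nuclei the cadherin CDH8 was at 563, 952 and 1766 CPM against 32.0, 62.9 and 126 CPM (log2 fold change 3.75), and DSCAML1, a relative of DSCAM that served in no limit, at 495, 1226 and 1420 CPM against 67.1, 125 and 301 CPM (2.99). CNTN4 (-4.31), the protocadherin PCDH15 (-3.79) and the ephrin receptor EPHA6 (-3.71) were lower. Against the CA10 nuclei low in both with BC markers alone, DSCAML1 differed by 0.08 (edgeR adjusted p = 0.54). Of ribbon synapse genes 7 of 23 were higher and 6 lower (median 0.01), where 36.7% of all features passed in either direction.

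Of transcription factor genes, 4 of 27 were higher and 16 lower against CA10 and DSCAM nuclei (median -0.69), beside 18.2% and 18.5% of all features. In nuclei with BC markers alone 5 of 22 were higher and 10 lower (median -0.38), beside 16.6% and 19.7%. SOX6 (-4.63), MEIS2 (-4.15), NFIB (-3.65) and SOX5 (-2.44) were lower in the latter, and EBF1, TSHZ2 (1.42) and MEIS1 (1.36) were higher. MEIS2 differed by -0.11 from the CA10 nuclei low in both with BC markers alone (edgeR adjusted p = 0.79). MEIS1, a TALE homeodomain factor, was also higher against the CA10 nuclei low in both, by 1.58 in all CA10 and ERBB4 nuclei and 0.90 in those with BC markers alone. A UMI of MEIS1 was more common outside BC-marker nuclei. It was found in 78.2% of the nuclei with amacrine markers alone (73.1% thinned) and 47.8% of those with BC markers alone (37.2% thinned). In ARR3 nuclei the share was 70.0% (54.4% thinned) and in TFAP2 nuclei 65.2% (44.8% thinned). Of the amacrine list, 4 of 8 were higher and 3 lower against CA10 and DSCAM nuclei (median 0.76), 5 of 7 higher and 0 lower against the CA10 nuclei low in both (median 1.48), and 5 of 6 higher and 0 lower against CA10 and PRKCA nuclei (median 2.12). Of all features 18.2%, 21.4% and 24.1% were higher in these comparisons and 18.5%, 20.1% and 23.9% lower. TFAP2A was at 114, 172 and 301 CPM against 26.7, 44.3 and 110 CPM in CA10 and DSCAM nuclei (1.99, SE 0.09), and SLC6A9 at 84.8, 276 and 704 CPM against 16.4, 34.5 and 118 CPM (2.35, SE 0.11).

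Summed over the 10 genes of the amacrine list, CA10 and ERBB4 nuclei held 2637, 4074 and 5078 CPM with 9 genes detected, those with BC markers alone 181, 398 and 1201 CPM with 6, and CA10 and DSCAM nuclei 1547, 1997 and 3380 CPM. GRM8 made up most of the sum in CA10 and ERBB4 nuclei. The nuclei with BC markers alone were chosen to lack 4 of the list's genes, which sets part of their sum. Of ON BC genes, 4 of 8 were higher and 3 lower against CA10 and DSCAM nuclei (median 0.03), 0 of 9 higher and 8 lower against the CA10 nuclei low in both (median -1.26), and 0 of 9 higher and 7 lower against CA10 and PRKCA nuclei (median -1.50). Of all features 18.2%, 21.4% and 24.1% were higher and 18.5%, 20.1% and 23.9% lower in these comparisons. Of OFF BC genes 7 of 9 were higher and 0 lower than in CA10 and PRKCA nuclei (median 1.12), 4 of 11 higher and 5 lower than in the CA10 nuclei low in both (median -0.29), and 5 of 12 higher and 5 lower than in CA10 and DSCAM nuclei (median 0.08), beside the same shares of all features. Their summed level was 3722, 5382 and 6260 CPM in CA10 and ERBB4 nuclei, 4511, 5031 and 5790 CPM in the CA10 nuclei low in both, 3653 to 7451 CPM in TFAP2 nuclei and 14607, 25794 and 32582 CPM in CA10 and DSCAM nuclei, so the first 3 overlapped and the last lay above. Most of the sum in CA10 and DSCAM nuclei came from GRIK1li1, whose levels are given above, and the sum without it was not compared. Of the further genes listed for the OFF type with ERBB4, 3 were tested, of which 1 was higher and 1 lower against CA10 and DSCAM nuclei (median -0.36), 1 higher and 2 lower against the CA10 nuclei low in both (median -0.48), and 1 higher and 2 lower against CA10 and PRKCA nuclei (median -1.75). Of all features, 36.7%, 41.6% and 48% differed in either direction in these comparisons.

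With 5 retinas a stage, no difference between stages passed the test in the share of CA10 and ERBB4 nuclei among all nuclei. In infancy they were 1.30%, 1.80% and 3.14% of nuclei in the lowest, median and highest retina (mean 1.97 ± 0.690%, SD, n = 5), in mature retinas 1.14%, 2.10% and 2.98% (2.00 ± 0.695%), and in senile retinas 0.773%, 1.76% and 2.38% (1.59 ± 0.7102%). The stages overlapped, and the differences were 0.0331 percentage points for mature against infancy, -0.409 for senile against mature and -0.376 for senile against infancy (exact permutation test of retinas, two-sided, p = 0.921, 0.381 and 0.429, adjusted over 3 comparisons 0.921, 0.643 and 0.643). The mature-infancy difference changed sign with settings and single retinas. Fewer such cells and less CA10 or ERBB4 RNA per cell cannot be told apart in these shares.

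Of the 21207 nuclei that met the CA10 limit and passed the other limits of BCs, CA10 and ERBB4 nuclei were 10.3%. The share was 5.90%, 8.38% and 14.4% in infancy (9.46 ± 3.47%, SD, n = 5), 7.08%, 14.2% and 14.7% in mature (12.02 ± 3.37%) and 7.33%, 11.1% and 13.7% in senile retinas (10.7 ± 2.39%). Differences of 2.56, -1.33 and 1.23 percentage points for mature against infancy, senile against mature and senile against infancy did not pass the test (exact permutation test, adjusted p = 0.516 for each). Leaving out each retina gave 1.67 to 3.79, -2.56 to -0.488 and 0.341 to 2.45. Another share, that of CA10 and ERBB4 nuclei among the CA10 nuclei with amacrine markers alone, averaged 47.0% in infancy, 39.8% in mature and 44.8% in senile retinas, and its differences had the opposite signs, at -7.26, 5.04 and -2.22 percentage points. Among the CA10 nuclei with BC markers alone, the share averaged 4.97% in infancy, 7.24% in mature and 5.79% in senile retinas. Its differences were 2.27, -1.45 and 0.817 percentage points (exact permutation test, adjusted p = 0.452, 0.452 and 0.524).

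**Figure D4:**
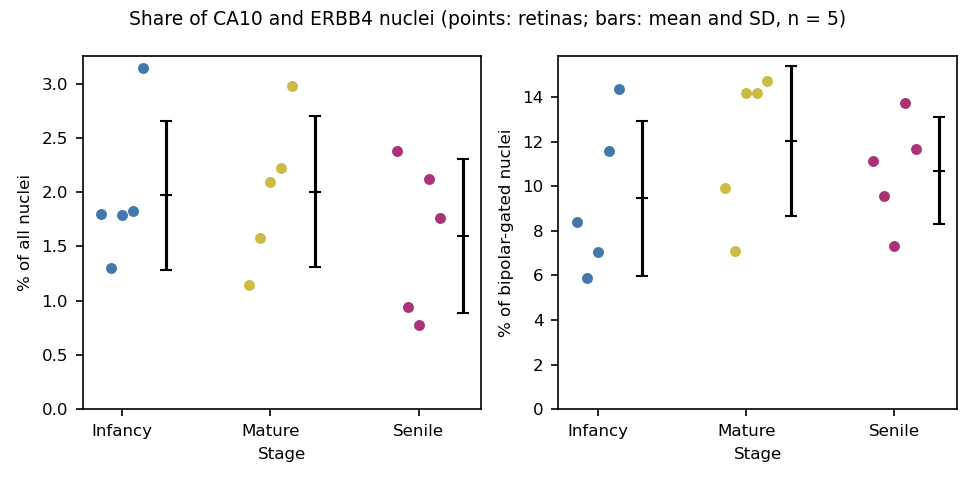
CA10 and ERBB4 nuclei as a share of all nuclei (left, %) and of the CA10 nuclei passing the other BC limits (right, %), with a point for each retina and bars for the mean and SD (n = 5). The stages overlap in both panels.

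Few genes differed between stages within the CA10 and ERBB4 nuclei. Of 5597 features tested by edgeR, 5 were higher and 3 lower in mature than in infancy retinas (0.143%; 0.0893% higher and 0.0536% lower), and 11 were higher and 1 lower in senile than in infancy retinas (0.214%; 0.197% higher and 0.0179% lower), of which 7 and 10 had no plain gene name. In nuclei with BC markers alone 1 of 2440 features was higher in each of these comparisons and 0 lower (0.041%), and in those with amacrine markers alone 1 of 2482 was higher in mature (0.0403%), and 5 were higher and 1 lower in senile retinas (0.242%). For senile against mature there were 0 higher and 0 lower by edgeR (0%) and by DESeq2, with 352 features at an unadjusted p under 0.05. In both comparisons with infancy, DESeq2 called more features than edgeR, with counts given in the section on processing. No member of the lists on receptors, channels, adhesion, synapses, transcription factors or neuregulins was called. EBF1 differed by -0.18 and SLC17A8 by -0.38 on the log2 scale between senile and infancy retinas (edgeR adjusted p = 1 for both).

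IGF2BP2, an RNA-binding protein of growing tissues, was lower after infancy. It was at 44.8, 38.8, 50.3, 31.7 and 43.6 CPM in infancy retinas 1 to 5, at 0, 9.74, 10.3, 5.89 and 1.29 CPM in mature retinas and at 3.07, 0, 0, 5.52 and 1.61 CPM in senile retinas. Every infancy retina lay above every mature and senile one, with a log2 fold change of -2.82 (SE 0.47, edgeR adjusted p = 0.0120) for mature and -3.88 (SE 0.61, adjusted p = 0.00574) for senile against infancy. Without senile retina 5 the senile difference was -3.62 (edgeR adjusted p = 0.0554). At 5 or more ERBB4 UMIs, without called doublets and in the subsets of nuclei by BC and amacrine markers, IGF2BP2 was under the low-count filter, so neither difference was tested or called there. The same order was seen in CA10 and DSCAM nuclei (43.0 to 61.3, 3.06 to 7.48 and 0.915 to 4.17 CPM in infancy, mature and senile), in TFAP2 nuclei (37.8 to 59.8, 4.71 to 21.2 and 4.67 to 16.0 CPM) and in ARR3 nuclei (14.3 to 26.5, 1.40 to 11.0 and 0.823 to 4.13 CPM).

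A further 3 genes were singled out after their values were seen. CDK15, a cyclin-dependent kinase, was at 11.6 to 31.4 CPM in infancy, 27.1 to 56.5 in mature and 25.5 to 82.8 in senile retinas, overlapping between stages (senile against infancy log2 fold change 1.68, SE 0.30, edgeR adjusted p = 0.0169). A numbered copy of MIA3, whose reads may be shared with other copies, was at 7.20 to 15.5, 89.9 to 125 and 111 to 191 CPM and was higher in mature (3.47, edgeR adjusted p = 2.3e-07) and senile retinas (3.96, adjusted p = 3.4e-08), and at 14.1 to 28.5, 96.0 to 134 and 110 to 220 CPM in CA10 and DSCAM nuclei. SLC2A13, a proton-linked carrier of myo-inositol, was at 69.1 to 117, 113 to 157 and 162 to 251 CPM in the nuclei with amacrine markers alone (senile against infancy 1.15, SE 0.21, edgeR adjusted p = 0.0154), and differed by 0.96 in all CA10 and ERBB4 nuclei (adjusted p = 0.341).

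The effect of stage was compared between CA10 and ERBB4 nuclei and CA10 and DSCAM nuclei by an interaction term over 10836 features. For senile against infancy 1 feature passed (0.00923%), and for the other comparisons 0 did (0%), with 489, 546 and 530 features at an unadjusted p under 0.05 for mature against infancy, senile against infancy and senile against mature (edgeR). DESeq2 called 1 feature for senile against infancy and 0 for the others. The feature called by edgeR was VWC2, a secreted inhibitor of bone morphogenetic protein signalling. It was at 183 to 248 CPM in infancy, 147 to 271 in mature and 70.9 to 166 in senile retinas in CA10 and ERBB4 nuclei, and at 161 to 218, 213 to 298 and 186 to 311 CPM in CA10 and DSCAM nuclei (interaction -1.06 on the log2 scale, SE 0.18, edgeR adjusted p = 0.0369). Its own difference with stage in CA10 and ERBB4 nuclei was -0.69 (adjusted p = 0.379).

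VWC2 lay in the nuclei with BC markers, at 467 to 527, 348 to 598 and 153 to 389 CPM by stage, against 0 to 37.1, 7.69 to 115 and 0 to 32.4 CPM in those with amacrine markers alone. In nuclei with BC markers alone on both sides the interaction was -1.02 (edgeR adjusted p = 0.292). The call was lost in 10 of 15 omissions of a single retina.

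**Figure D5:**
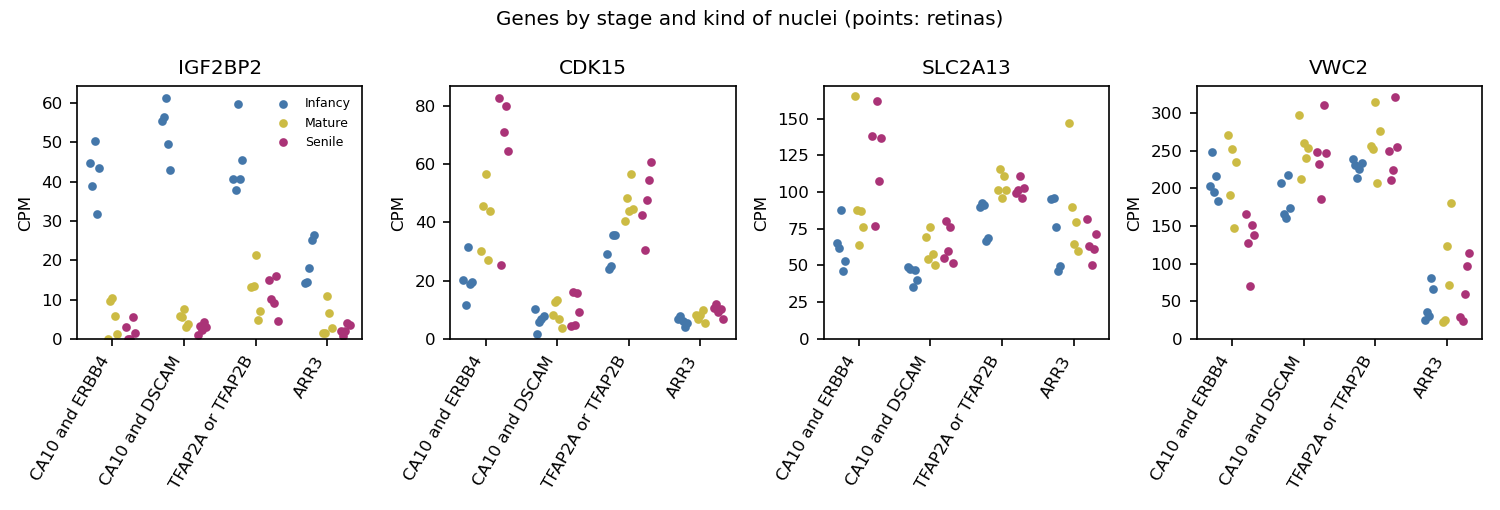
CPM of IGF2BP2, CDK15, SLC2A13 and VWC2 by stage in 4 kinds of nuclei, with a point for each retina. IGF2BP2 is highest in infancy in all 4 kinds. In CA10 and ERBB4 nuclei VWC2 spans 70.9 to 166 CPM in senile and 183 to 248 CPM in infancy retinas, a difference that edgeR did not call.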

How the data were processed

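Single-nucleus RNA of 15 retinas was measured as raw UMI counts per feature and barcode, which the authors made with Cell Ranger and deposited as matrices of 83605 features. The file headers name Cell Ranger 6.1.2 for 7 libraries and 7.0.1 for 8, while the submitters' processing notes give 5.0.1 and 7.0.1. Reads were aligned to the tree shrew genome TS_3.0, and whether introns were counted is not given in the sources used here. Of 120437 barcodes, 119765 with 201 to 5999 genes and under 5% MT- counts were kept. Doublets were called by the share of simulated doublets (25% of nuclei) among 40 neighbours. The share called was set in advance and rose by 8 per 1000 for every 1000 nuclei of a library. Called doublets were kept, and were removed as an alternative.

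The members, the gene lists, the markers of each subset and the tests were chosen with earlier results of these data known. Counts were summed per retina and tested with the edgeR 4.0.16 quasi-likelihood test (limma 3.58.1, R 4.3.3; TMM, low-count filter, Benjamini-Hochberg adjustment over all features, 0.05), with the retina as a block between kinds of nuclei and stage alone between stages, and retinas with under 10 nuclei of a kind left out. DESeq2 1.42.0 with its own size factors, no filter, ERBB4 limits of 2 and 5, the Cell Ranger version, the replicate number as a block, no block between kinds of nuclei, thinned shares and each retina left out were alternatives, and subsets by BC and amacrine markers were added after the data were seen. Shares between stages were tested by exact permutation of the 10 retinas of each pair of stages (252 splits), and levels and shares paired within retinas by exact sign-flips over up to 15 retinas. For detection, nuclei were thinned to 2000 UMIs. Limits from counts of 0 (3 counts) cover counting error only. Leiden clusters used 2000 features, 20 components, 20 neighbours and a resolution of 0.3 (leidenalg 0.10.2, scikit-learn 1.9.0, Python 3.11.15).

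Named genes were at most 10 per direction with the largest fold changes past the threshold, at 50 CPM or more (20 between stages), with the same direction in every retina or stages that did not overlap, plus members of the lists. Numbered copies, antisense and unnamed features were counted but not named, except where stated. On simulated data, 88% of genes with a 4-fold and 43% with a 2-fold change were found for senile against infancy, and 100% and 89% between CA10 and ERBB4 and CA10 and DSCAM nuclei, over 5603 genes of which 200 were changed, with 7 and 8 false calls among the others. Replicate numbers were not taken to pair retinas across stages, since not every same-numbered pair was correlated. A few list genes, including a BC marker, are not reported here.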

Additional observations from a re-analysis of the deposited data

Results flagged for a closer look

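Of 24 groups of 5 retinas tested, 4 had a retina that stood apart from its group, where chance gives about 1 in 20. CA10 and ERBB4 nuclei were 3.14% of the nuclei of infancy retina 5, against 1.30% to 1.82% in the other infancy retinas. BC markers alone were found in 45% of the CA10 and ERBB4 nuclei of infancy retina 4, against 32.8% to 34.7%. The inositol carrier SLC2A13 was at 166 CPM in mature retina 1, against 64.2 to 87.6 CPM in the other mature retinas, and IRX5 was at 38.3 CPM in senile retina 2, against 0 to 11.0 CPM in the other senile retinas. In the CA10 and ERBB4 nuclei of senile retina 2, a level of 38.3 CPM is 3 UMIs.

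The effect of stage on VWC2 differed between CA10 and ERBB4 nuclei and CA10 and DSCAM nuclei for senile against infancy, by -1.06 on the log2 scale (interaction term, edgeR adjusted p = 0.0369). The call was not made in nuclei with BC markers alone (edgeR adjusted p = 0.292, difference -1.02). It was also not made without nuclei with amacrine markers, left out of the CA10 and ERBB4 nuclei only (0 features). It was lost in 10 of 15 omissions of a single retina.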

How the results depend on the processing

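Stage counts rest on few nuclei per retina (41 to 221), and calls at this depth were few. For 62 gene results, 1318 alternatives tested the gene, and direction and side of the threshold stayed in 1317 of these. Nearly all of these genes were picked for large fold changes with the same direction in every retina. Leaving out a retina could therefore hardly change them. BC-marker nuclei tested 36 of the 62, and the setting without nuclei with amacrine markers 44. IGF2BP2 lost its senile call without senile retina 5 (-3.62). It was under the low-count filter, so not tested or called, at 5 or more ERBB4 UMIs, without called doublets and in the marker subsets, where other named genes also went untested. The causes of the changes given here were not tested.

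Counts of features higher and lower in CA10 and ERBB4 nuclei, as given in the report, kept within 1.5 times except as follows. With BC-marker nuclei alone they were 752 and 892 against CA10 and DSCAM nuclei, 649 and 665 against CA10 nuclei low in both, and 798 and 720 against CA10 and PRKCA nuclei. Without nuclei with amacrine markers they were 819 and 867, 678 and 671, and 855 and 783. These nuclei were left out of the CA10 and ERBB4 nuclei only, here and in the interaction. The number of features tested can change with the setting. Against CA10 and DSCAM nuclei it was 8457, of which 36.7% passed, and 4527 with BC-marker nuclei alone, of which 36.3% passed. With no low-count filter the lower counts were 3533, 4694 and 2715, and 2739 were higher against CA10 and PRKCA nuclei. Leaving out each retina gave 1308 to 1606 and 1486 to 1712, 1562 to 1822 and 1582 to 1852, and 1333 to 1457 and 1287 to 1443.

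For mature against infancy, features higher and lower numbered 8 and 6 with the Cell Ranger version in the model, 14 and 12 by DESeq2, 1 and 0 in amacrine-marker nuclei, 1 and 0 in BC-marker nuclei, 119 and 82 with no filter, and 0 and 0 without nuclei with amacrine markers. The lower count was 1 at 5 or more ERBB4 UMIs and 1 without called doublets. Leaving out each retina gave 4 to 10 higher (10 without senile 2) and 2 to 6 lower (6 without mature 4, 5 without infancy 5). For senile against infancy they numbered 18 and 4 by DESeq2, 6 and 0 at 5 or more ERBB4 UMIs, 1 and 0 in BC-marker nuclei, 106 and 61 with no filter, and 2 and 0 without nuclei with amacrine markers. In amacrine-marker nuclei 5 were higher, with the version in the model 2 were lower, and without called doublets 0 were lower. Leaving out each retina gave 7 to 16 higher (7 without infancy 4 or senile 5) and 0 to 2 lower (0 without senile 5, 2 without mature 4). For senile against mature, no filter gave 22 and 62, and leaving out each retina 0 to 0.

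With the replicate number as a block, 2 features were lower in senile than in infancy retinas, against 1 without it. It moved no other stage count by over 1.5 times. In the share among CA10 nuclei passing the other BC limits, the block gave p = 0.0625 for mature against infancy, the smallest that 32 sign-flips allow (exact permutation test, difference 2.56, adjusted p = 0.1875). Same-numbered retinas of different stages correlated at -0.267 to 0.433 (median 0.218, 15 pairs, 12 above 0.1), and differently numbered ones had a median of -0.130. Not every same-numbered pair was above 0.1, and only 5 of 15 retinas were closest to a retina of their own number, so the numbers were not used to pair retinas. The labels name no shared litter, day or batch, but number and library version go together, with Cell Ranger 6.1.2 in the headers of replicates 1 and 2 of every stage and 7.0.1 in those of replicates 4 and 5.

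For the interaction, no filter gave 13 and 17 for mature against infancy, 11 and 24 for senile against infancy and 9 and 26 for senile against mature. The VWC2 call became 0 in BC-marker nuclei and 0 without nuclei with amacrine markers, and 2 features were lower without called doublets. In BC-marker nuclei 1 was higher for senile against mature. Leaving out each retina gave 0 to 1 and 0 to 1, 0 to 0 and 0 to 2, and 0 to 1 and 0 to 3 (3 without mature 4).

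The mature-infancy difference in the share of all nuclei reversed to -0.0693 percentage points at 2 or more ERBB4 UMIs, -0.160 within Cell Ranger versions and -0.227 for amacrine-marker nuclei, and ran from -0.211 to 0.326 leaving out each retina, below 0 in 6 cases. The senile-mature difference was 0.180 for amacrine-marker nuclei. In place of the share among CA10 nuclei passing the other BC limits, the share among only those with amacrine markers alone (means 39.8% to 47.0%) gave -7.26, 5.04 and -2.22 for mature against infancy, senile against mature and senile against infancy. Leaving out each retina gave -0.624 to -0.165 and -0.572 to -0.0834 for the senile differences in the first share, and 1.67 to 3.79, -2.56 to -0.488 and 0.341 to 2.45 in the second. None of these differences passed the permutation test where it was run.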
